A study of Mus musculus with 2040 samples.

Results

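The nuclear genes of oxidative phosphorylation were followed across 5 groups of sorted mouse brain cells. The genes were taken by symbol alone: every gene of the deposited table whose symbol begins with Nduf, Uqcr, Atp5, Cox4, Cox5, Cox6, Cox7 or Cox8, together with Sdha, Sdhb, Sdhc, Sdhd and Cycs. The rule found 95 genes among 32245 gene columns. They comprise 39 genes of complex I, 8 complex I assembly factors whose symbols begin with Ndufaf, 4 genes of complex II, 8 of complex III, cytochrome c, 18 of complex IV and 17 of ATP synthase, on 19 chromosomes. The assembly factors build complex I and are not part of the finished enzyme, so they were counted apart.

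Oxidative phosphorylation takes place at the inner mitochondrial membrane. Complex I oxidises NADH and complex II oxidises succinate; electrons then pass through complex III, the small carrier cytochrome c and complex IV to oxygen, and ATP synthase uses the resulting proton gradient to make ATP. Most subunits are encoded in the nucleus and the rest in mitochondrial DNA, so each complex other than complex II is assembled from both. In the brain, neurons are known for a high demand for ATP from this pathway, whereas astrocytes and mature oligodendrocytes are known to rely to a larger extent on glycolysis.

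All mice were of the C57Bl/6J genotype, and each had received 1 AAV (adeno-associated virus) whose enhancer or promoter drives the fluorescent protein SYFP2. Cells positive for SYFP2 were flow sorted one by one and their polyA RNA was profiled by SMARTer version 4 chemistry, so the cells are those in which the reporter was detected, and no untreated cells were analysed here. The dissections are named in the labels, VISp for primary visual cortex, MB/HB for midbrain with hindbrain, and CBX for the cortex of the cerebellum. The age of the mice is not given in the sources used here.

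Cell classes were rebuilt by clustering without the 95 genes and are named after markers. VISp astrocyte-like cells came from 19 mice and 12 vectors (739 cells). CBX astrocyte-like cells came from 2 mice, MouseID-614198 and MouseID-651221, both given eHGT_375m (81 cells). MB/HB astrocyte-like cells came from 4 mice: MouseID-615516 and MouseID-651222, given eHGT_381h, and MouseID-651228 and MouseID-651229, given MGT_E160m (150 cells); values of these 4 mice are given in this order. VISp oligodendrocyte-like cells came from 22 mice and 15 vectors (925 cells), and VISp neuron-like cells from 2 mice given MBP_promoter, MouseID-638254 and MouseID-651227 (45 cells). No vector was shared between tissues, so tissue and vector cannot be told apart. Set against astrocytes, the neurons likewise cannot be told apart from their single vector. The same 2 mice also gave oligodendrocytes under that vector. The neurons were GABAergic: their summed CPM of GABAergic markers ran from 2858 to 3372 over the 2 mice, against 0.306 to 4.21 for glutamatergic markers.

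Across the 2040 cells a median of 434102 reads (57873 to 1455022) and 4436 genes were detected. The median number of genes detected per cell, taken in each mouse, was 3762 to 4701 in the VISp astrocyte mice, 5591 and 5078 in CBX, 2734 to 4602 in MB/HB, 3702 to 5040 in the oligodendrocyte mice and 8676 and 8448 in the neurons. Cells in which markers of another class were also detected made up 3.92% of VISp astrocyte-like, 8.64% of CBX, 12% of MB/HB, 5.33% of oligodendrocyte-like and 5% of neuron-like cells. Each mouse was 1 replicate, its value the mean CPM (reads per 1000000 reads in genes) over its cells of the class. The p-values measure the spread between mice, estimated for each gene over all 5 groups together. For CBX and neurons, with 2 mice each, and for MB/HB, with 4, that spread comes mostly from the VISp astrocyte and oligodendrocyte mice. Genes were compared on the log2(mean CPM + 1) scale, which understates the change of low genes, with limma and Benjamini-Hochberg adjustment over all 3122 genes tested, and a gene was called at an adjusted p under 0.05. Of the 95 genes, 94 passed the filter of 1 CPM in at least 2 mice. Cox8c, a complex IV isoform gene, did not: its highest group mean was 0.151 CPM, in MB/HB. Cox8b passed through mice of VISp and MB/HB only, Ndufa4l2 through 1 MB/HB and 1 oligodendrocyte mouse, and Cox6a2 through VISp mice alone.

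The share of reads falling in the 95 genes was highest in neurons, intermediate in astrocytes and lowest in oligodendrocytes. In VISp astrocyte-like cells the share per mouse had a lowest value of 2.19%, a median of 2.50% and a highest of 3.24%, with a mean of 2.60% ± 0.250 (SD, n = 19). The 22 oligodendrocyte mice ran from 1.55% through a median of 1.86% to 2.46%, with a mean of 1.92% ± 0.237 (SD, n = 22), and 19 of the 22 lay below every VISp astrocyte mouse. The neurons of MouseID-638254 and MouseID-651227 had 4.72% and 5.0%, above every other mouse. The neuron mean was 1.87 times that of VISp astrocytes and 2.54 times that of oligodendrocytes, and the oligodendrocyte mean was 0.737 times that of VISp astrocytes. Labels name sort plates with the prefix AB or SM: oligodendrocytes differed by -0.725 percentage points from astrocytes on AB plates (16 mice of each) and by -0.521 points on SM plates (6 and 3 mice), so the difference held within each prefix. All neuron, CBX and MB/HB cells were on AB plates.

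Among astrocytes the mean share was higher in MB/HB than in VISp, with ranges that overlapped; shares were not given a test. The 4 MB/HB mice had 2.90%, 3.93%, 3.06% and 3.28%, a mean of 3.29% ± 0.452 (SD, n = 4). All 4 exceeded the VISp median and 2 exceeded the highest VISp mouse, which was MouseID-614199 (eHGT_376h). The difference was 0.694 percentage points and stayed between 0.482 and 0.824 on leaving out any 1 of the 4 mice, the lower value being that without MouseID-651222. In genes detected per cell, MouseID-651222 had the lowest median of the MB/HB mice (2734) and MouseID-614199 that of the VISp astrocyte mice (3762). The part of this in the shares was not tested. The CBX mice, MouseID-614198 and MouseID-651221, had 2.79% and 2.85% and lay inside the VISp range. Within single cells the same order of classes was seen: the median share per cell was 4.78% in neurons, 3.14% in MB/HB, 2.73% in CBX and 2.45% in VISp astrocytes, and 1.84% in oligodendrocytes.

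**Figure D1:**
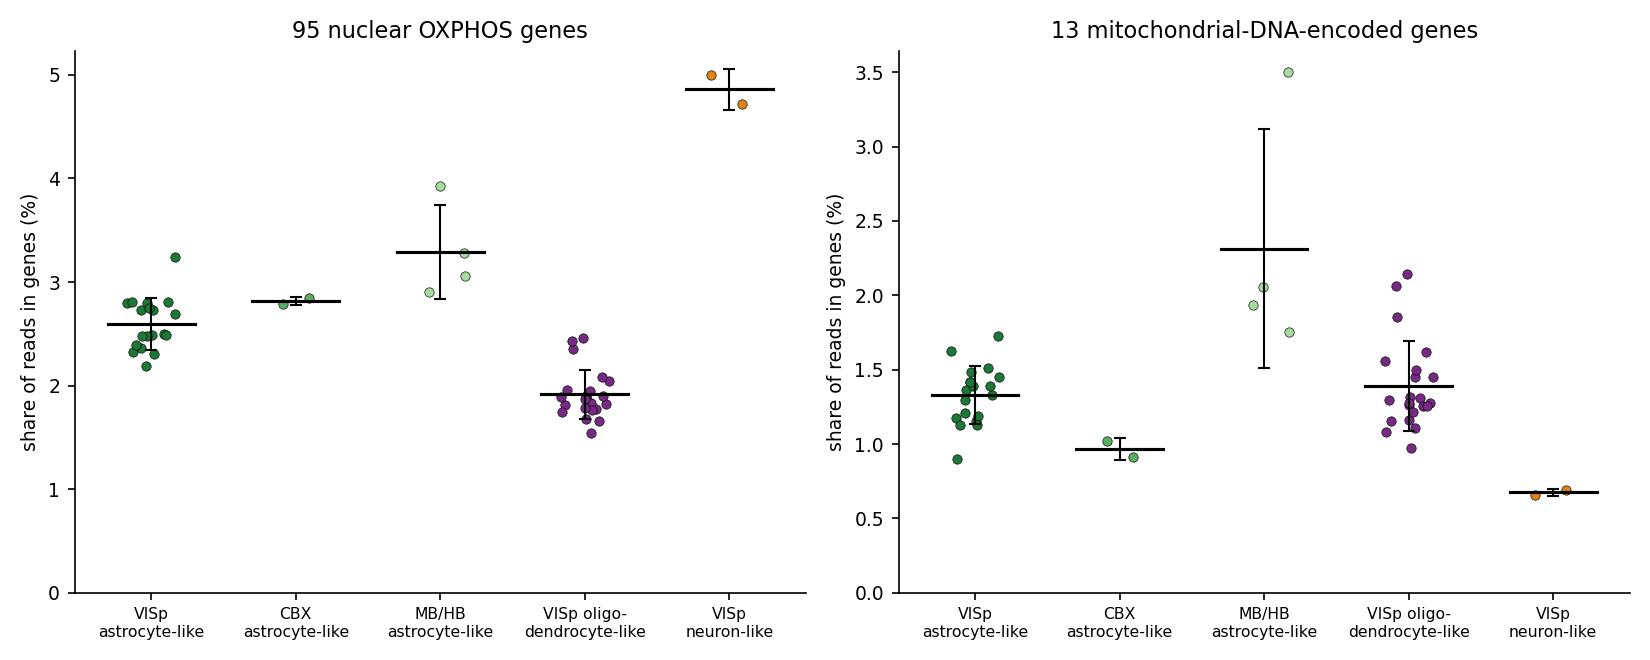
Share of reads in genes (percent, vertical axes) that fell in the 95 nuclear oxidative phosphorylation genes (left) and in the 13 genes of mitochondrial DNA (right), by group; each point is 1 mouse, the bar the mean and the whisker the SD. On the left both neuron mice, at 4.72% and 5.0%, stand above all other mice; on the right they are the lowest 2 points.

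A pair of mice allowed the classes to be set side by side within 1 animal and 1 vector. MouseID-638254 gave 4.72% in its 19 neurons and 1.90% in its 29 oligodendrocytes, a ratio of 2.48. MouseID-651227 gave 5.0% in 26 neurons and 1.79% in 18 oligodendrocytes, a ratio of 2.80. In each mouse 89 of the 94 tested genes were higher in neurons, with median log2 differences of 1.27 and 1.42; over all genes tested 55.1% and 59% were higher, with medians of 0.18 and 0.36. The gap between neurons and oligodendrocytes was also present between cells sorted from the same brain.

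Each complex had its largest share of reads in neurons. In VISp astrocytes complexes I, II, III, IV and ATP synthase took 0.906%, 0.154%, 0.285%, 0.419% and 0.770% of reads, and in neurons 1.73%, 0.212%, 0.465%, 0.8292% and 1.51%. The neuron to astrocyte ratio was 1.91 for complex I, 1.98 for complex IV and 1.96 for ATP synthase, 1.63 for complex III and 1.37 for complex II, the enzyme shared with the citric acid cycle. Cytochrome c, which is 1 gene, had a ratio of 2.34. In oligodendrocytes the order of ratios to astrocytes differed: 0.480 for cytochrome c, 0.624 for complex II, 0.636 for ATP synthase and 0.643 for complex III, but 0.816 for complex I and 0.875 for complex IV.

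Counted gene by gene, the same direction was carried by most members. Between neurons and VISp astrocytes 70 of 94 genes rose and 2 fell, with a median log2 fold change of 0.85; of all genes tested 23.2% were called higher and 13.2% lower, with a median of 0.035. Between neurons and oligodendrocytes 81 rose and 0 fell, with a median of 1.30, against 26.4% higher and 11% lower and a median of 0.25 for all genes. In oligodendrocytes against VISp astrocytes 5 rose and 64 fell, with a median of -0.39, against 20.1% higher and 34.6% lower and a median of -0.19. When log2 values were averaged over cells in place of CPM the last split was 27 higher and 38 lower. The mean levels followed the order neuron, VISp astrocyte, oligodendrocyte in 67 of 94 genes (71.3%), against 25.8% of all genes tested. The rise in neurons against VISp astrocytes was not particular to the 94 genes. Of 84 cytosolic ribosomal protein genes 63 rose (75%, against 74.5% of the 94) and 2 fell, with a median of 0.98. In neurons against oligodendrocytes 20 of the 84 rose (23.8%, near the 26.4% of all genes) and 1 fell, with a median of 0.35. These comparisons share mice, the VISp astrocytes in particular, and are not independent.

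Among tissues the largest count was in MB/HB, where 40 of 94 genes rose and 1 fell against VISp astrocytes, with a median of 0.38; for all genes tested the called shares were 9.8% upward and 7.14% downward, with a median of 0.0012. In 86 of 94 genes (91.5%) the MB/HB mean was above that of VISp, against 50.1% of all genes. On AB plates alone 28 rose and 0 fell. CBX differed from VISp in few genes: 4 rose and 2 fell, a share near the 7.91% and 5.45% of all genes called higher and lower, with medians of 0.14 and -0.031. In CBX against MB/HB 1 gene rose and 9 fell (6.21% and 6.12% of all genes), with a median of -0.19. Averaging log2 values over cells gave 42 higher and 1 lower in CBX against VISp, and 18 higher and 6 lower against MB/HB, so both CBX counts turned on that choice.

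**Figure D2:**
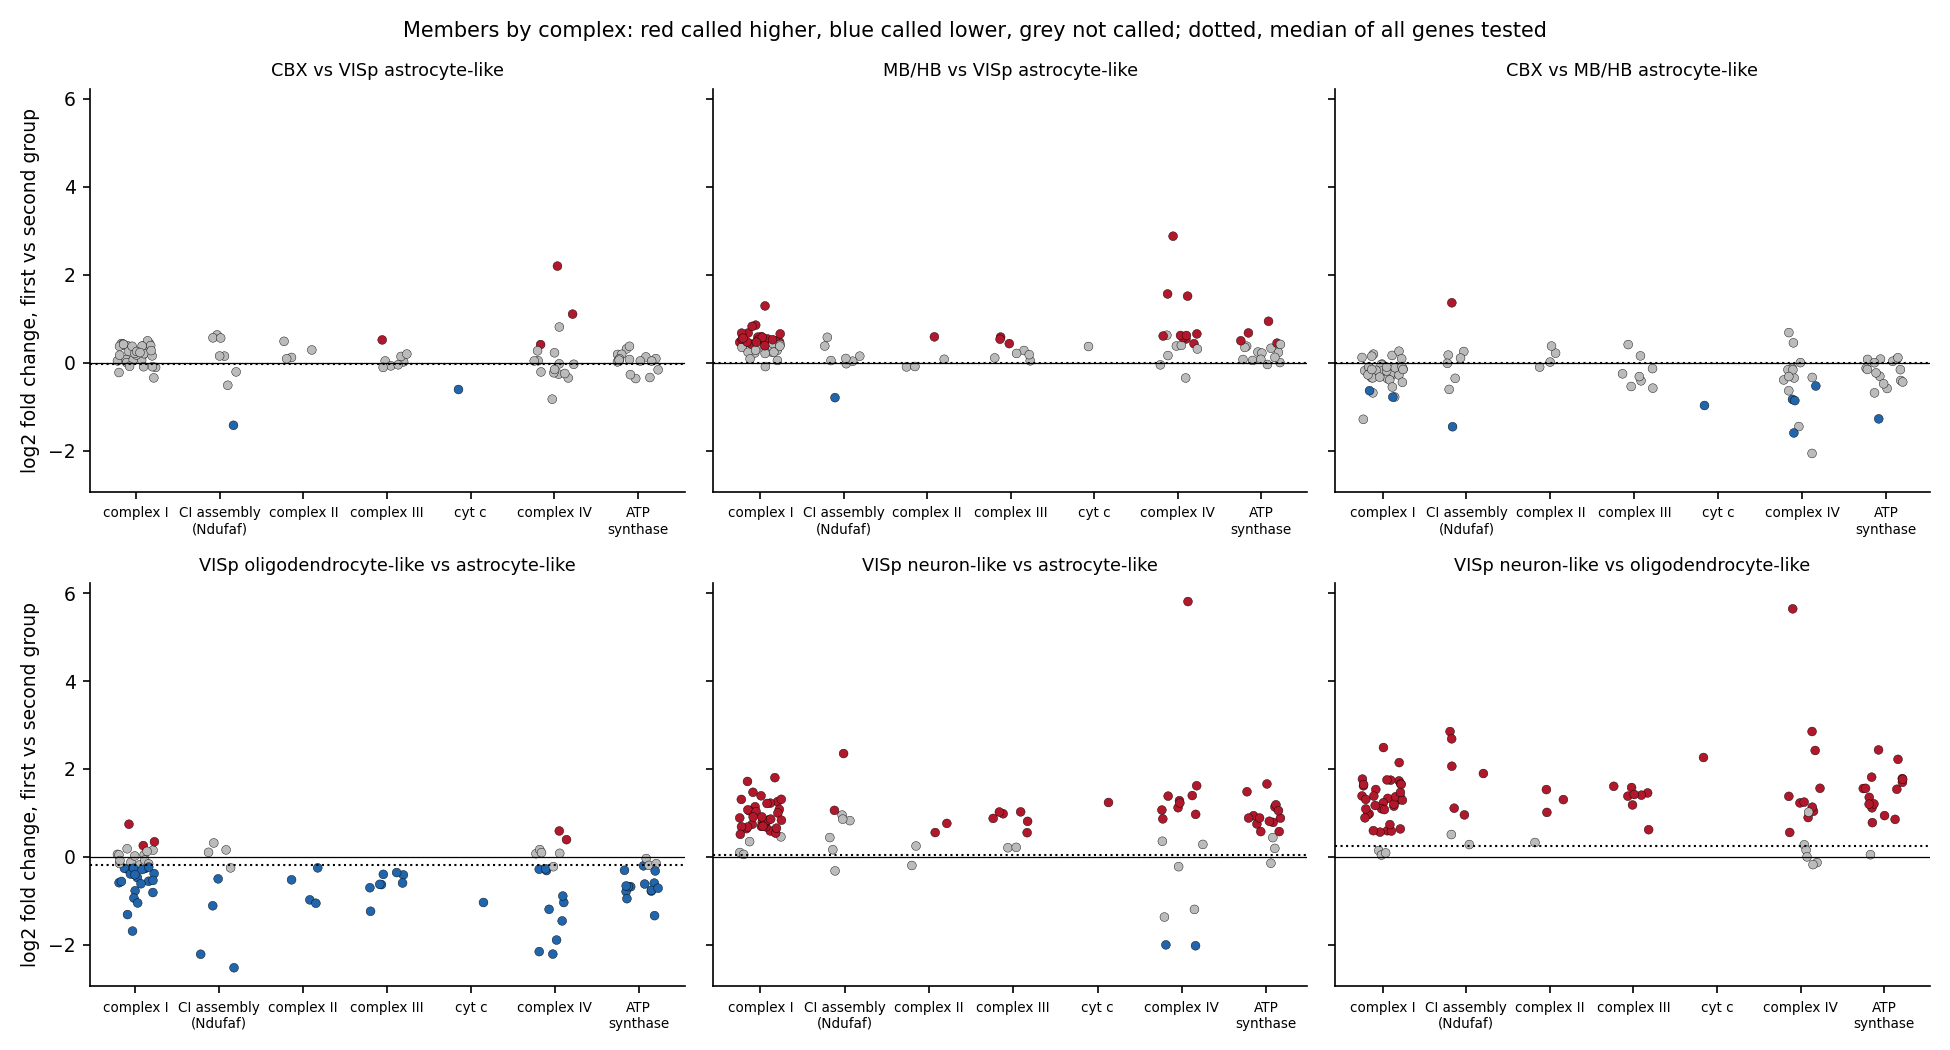
Log2 fold change (vertical axes) of each tested gene in the 6 comparisons, grouped by complex; each point is 1 gene, red where called higher, blue where called lower and grey where not called, and the dotted line is the median of all genes tested. In neurons most points lie above 0 and in oligodendrocytes most lie below, while the CBX and VISp astrocytes differ in 6 genes.

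In neurons 35 of 39 complex I genes rose against VISp astrocytes and 0 fell. Ndufa4 was long assigned to complex I and is now known as a complex IV subunit. By symbol, it and its paralogue Ndufa4l2 were kept with complex I in all counts and shares here. Ndufa4 had 1372 and 1502 CPM in neurons. In VISp astrocytes it had a lowest of 350.9, a median of 427.3 and a highest of 589.2 CPM, and in oligodendrocytes 164.8, 244.1 and 446.6. Neither neuron mouse overlapped either glial class, and Ndufa4 rose by 1.72 (SE 0.21, limma adjusted p = 1.18e-09) log2 against astrocytes and 2.49 (limma adjusted p = 8.02e-15) against oligodendrocytes. Ndufa1, a small membrane-arm subunit encoded on the X chromosome, had 323.2 and 319.9 CPM in neurons against 59.2, 90.4 and 168.6 in astrocytes (lowest, median and highest), without overlap, a change of 1.80 (limma adjusted p = 2.06e-07). The core subunits that carry flavin and iron-sulfur centres also rose: Ndufv1, which binds NADH, by 1.31 (limma adjusted p = 1.50e-06) and Ndufs1, the largest iron-sulfur subunit, by 0.91 (limma adjusted p = 8.96e-04). Ndufb8, a membrane-arm accessory subunit, rose by 1.22 (limma adjusted p = 6.24e-08). Of the 8 assembly factors 2 rose, a share of 25% near the 23.2% of all genes tested, with Ndufaf5, which modifies a core subunit during assembly, the most: it had 185.2 and 170.6 CPM in neurons against 14.7, 36.2 and 90.6 in astrocytes, a change of 2.35 (limma adjusted p = 4.52e-05).

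Of complex II 2 of 4 genes rose in neurons (50%) and of complex III 6 of 8 (75%), against 23.2% of all genes tested. The flavoprotein gene Sdha had 777.2 and 772.3 CPM in neurons against 335.0, 468.6 and 674.1 in VISp astrocytes, without overlap, and rose by 0.76 (limma adjusted p = 8.80e-04). Sdhb, the iron-sulfur subunit, had 710.9 and 783.4 CPM against 323.6, 508.8 and 757.1; the groups overlapped, the call was 0.55 (limma adjusted p = 0.011), and it was lost without either neuron mouse. Sdhc, a membrane anchor named after its values were seen, changed by -0.20 (limma adjusted p = 0.496). In complex III 6 of 8 genes rose, among them the core gene Uqcrc1 by 0.88 (limma adjusted p = 8.05e-05), the small subunit gene Uqcrq by 1.02 (limma adjusted p = 3.38e-05) and the other core gene, Uqcrc2, by 1.02 (limma adjusted p = 1.97e-05). Cycs, which encodes cytochrome c, had 314.4 and 328.9 CPM in neurons against 87.2, 130.1 and 177.02 in astrocytes and 56.6, 64.4 and 82.6 in oligodendrocytes, with no overlap, and rose by 1.25 (limma adjusted p = 2.36e-07) against astrocytes.

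Complex IV held both the largest rise and the only falls. Cox5a, which binds the catalytic core, had 811.4 and 763.0 CPM in neurons, against 223.1, 307.2 and 429.2 in VISp astrocytes and 82.8, 104.7 and 172.5 in oligodendrocytes, so neurons lay above every glial mouse. It rose by 1.40 (limma adjusted p = 5.27e-08) against astrocytes and 2.85 (limma adjusted p = 6.54e-18) against oligodendrocytes. Cox7a2l, known for its part in joining complexes III and IV, had 109.3 and 146.2 CPM against 23.8, 39 and 69.5 in astrocytes and rose by 1.62 (limma adjusted p = 3.02e-06). Cox6c, a single-isoform subunit, rose by 1.12 (limma adjusted p = 1.83e-05), while Cox8a changed by 0.36 (limma adjusted p = 0.132) and Cox7c by 0.28 (limma adjusted p = 0.319) and were not called. For ATP synthase 14 of 17 genes rose against astrocytes (82.4%), where 23.2% of all genes tested were called higher. Atp5b, the catalytic subunit, had 4092 and 4441 CPM in neurons, above the highest VISp astrocyte mouse at 2264, and rose by 1.19 (limma adjusted p = 1.35e-12). Its F1 partner Atp5a1 had 2141 and 2206 CPM, above the VISp astrocyte maximum of 1257, and rose by 1.13 (limma adjusted p = 5.39e-10). Atp5md, a small subunit also named Dapit, rose by 2.43 (limma adjusted p = 8.72e-12) against oligodendrocytes.

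Neurons had a median of 8676 and 8448 genes detected per cell, above all other mice, and the part of this in the differences was not tested.

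**Figure D3:**
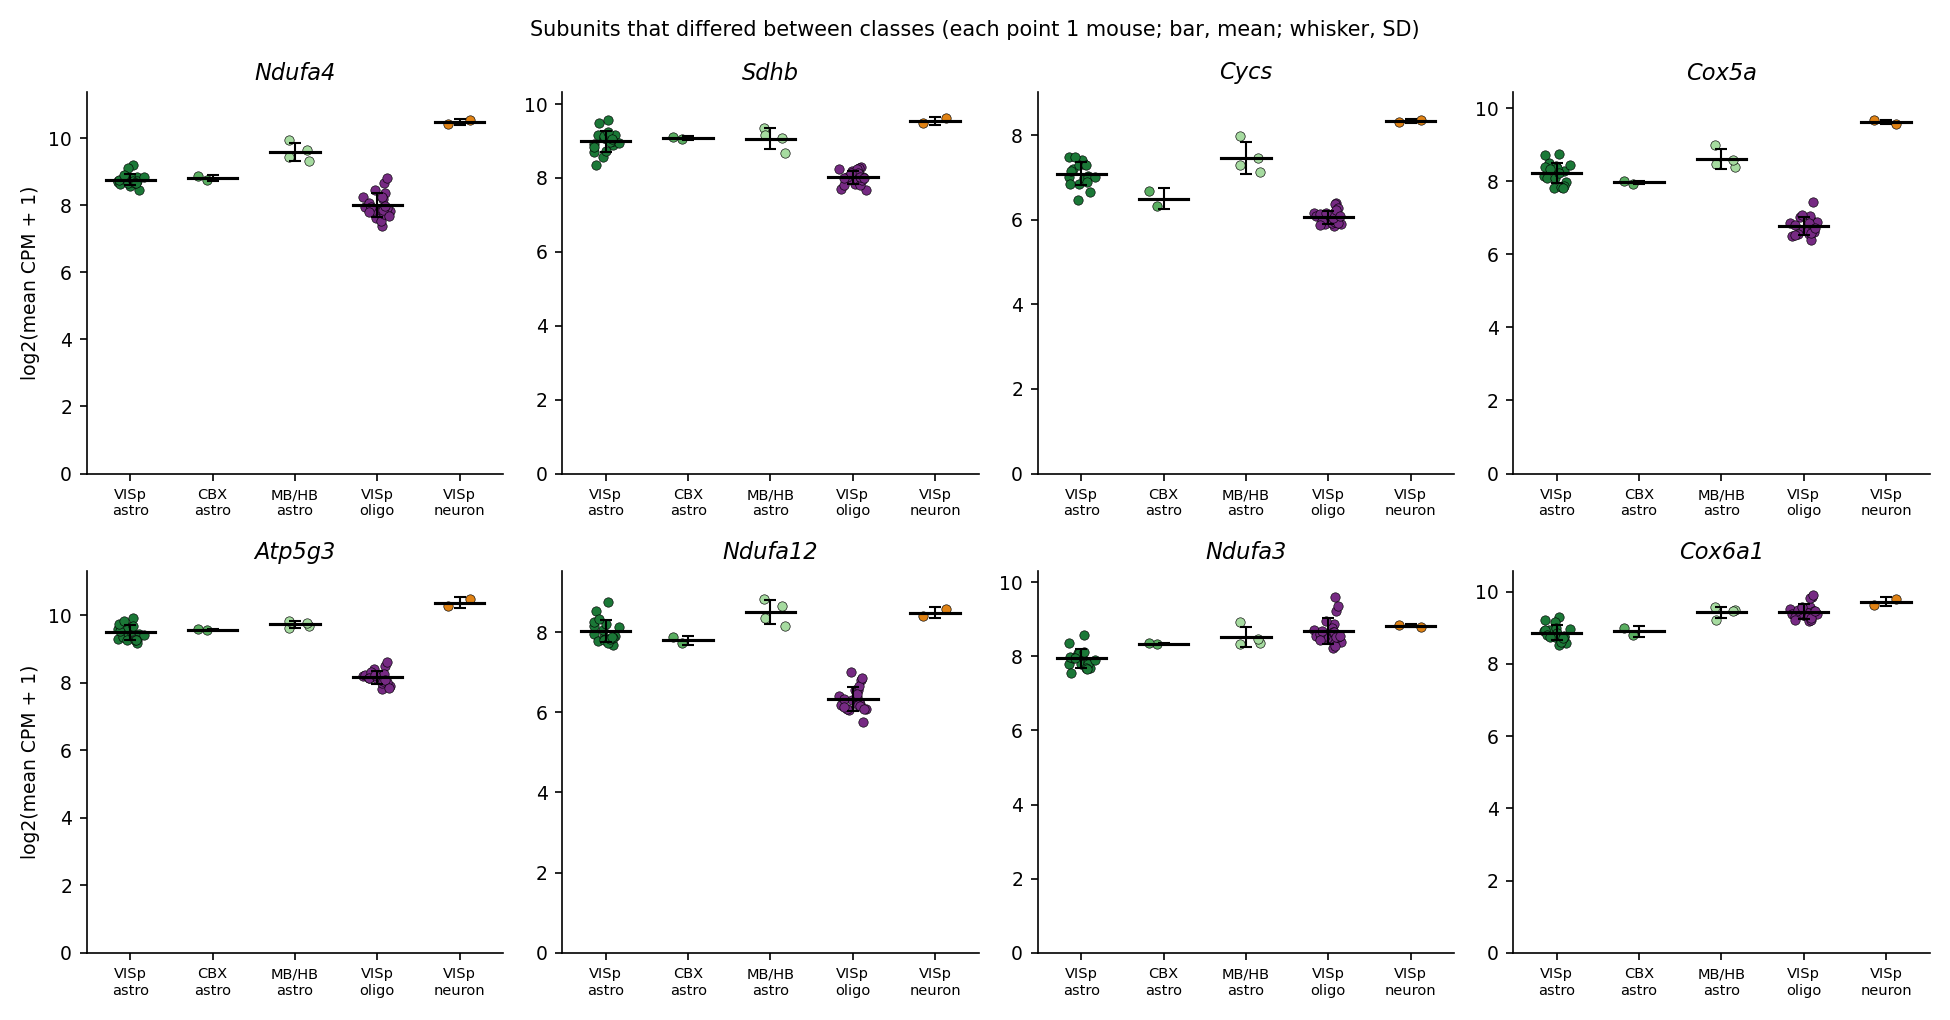
Level of 8 subunit genes as log2(mean CPM + 1) (vertical axes) by group; each point is 1 mouse, the bar the mean and the whisker the SD. Ndufa4, Cycs and Cox5a are highest in the 2 neuron mice, Atp5g3 and Ndufa12 are lowest in the oligodendrocyte mice, and Ndufa3 and Cox6a1 are higher in oligodendrocytes than in VISp astrocytes.

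In oligodendrocytes the fall was not even across complexes. All 4 genes of complex II, all 8 of complex III, Cycs and 14 of 17 ATP synthase genes fell against VISp astrocytes. With log2 values averaged over cells, Sdha (0.16) and Uqcrc2 (0.09) lay above 0, the calls of Uqcrc1 and Uqcrq were lost, and Atp5g1 and Atp5g2 were called higher. In complex I 23 of 39 fell (59%) and 3 rose (7.69%), and in complex IV 10 of 17 fell (58.8%) and 2 rose (11.8%). Of all genes tested 34.6% were called lower and 20.1% higher. Ndufa12, an accessory subunit of the matrix arm, had a lowest of 53.2, a median of 76.8 and a highest of 126.4 CPM in oligodendrocytes. The astrocyte mice had 204.2, 240.2 and 429.8 CPM for it, so the groups did not overlap. The change was -1.69 (SE 0.092, limma adjusted p = 2.29e-22), a level 3.23 times lower on this scale. By contrast Ndufb8 (0.021, limma adjusted p = 0.836) and Ndufv1 (-0.16, limma adjusted p = 0.135) were not called, and Ndufs1 fell (-0.26, limma adjusted p = 0.0176), a call lost on AB plates alone. Ndufa4 fell, with a change of -0.77 (limma adjusted p = 6.67e-11), though the 22 oligodendrocyte mice overlapped the astrocyte range in part.

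Of the members, Ndufaf6 and Ndufaf4 had the lowest log2 changes in oligodendrocytes. Ndufaf4, needed for early assembly of complex I, had a lowest of 13.6, a median of 25.1 and a highest of 50.1 CPM in oligodendrocytes against 74.2, 122.7 and 164.7 in astrocytes, a change of -2.22 (SE 0.14, limma adjusted p = 1.12e-19). Ndufaf6, a further assembly factor, had 0, 6.08 and 26.3 CPM against 4.22, 38.7 and 73.2, a change of -2.52 (limma adjusted p = 4.79e-10). The groups overlapped for Ndufaf6 and not for Ndufaf4. Altogether 4 of the 8 Ndufaf genes fell (50%), against 34.6% of all genes tested. Outside the rule, 18 of 39 further assembly factors of the complexes fell (46.2%) and 4 rose (20.1% of all genes rose), with a median of -0.49.

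Among the electron carriers and the later complexes, Sdhb had a lowest of 205.03, a median of 255.9 and a highest of 315.3 CPM in oligodendrocytes against 323.6, 508.8 and 757.1 in VISp astrocytes. The groups did not overlap, and Sdhb changed by -0.98 (limma adjusted p = 1.57e-16); Sdha changed by -0.25 (limma adjusted p = 0.00621). Cycs changed by -1.03 (limma adjusted p = 1.51e-16), its highest oligodendrocyte mouse at 82.6 CPM and its lowest astrocyte mouse at 87.2. Cox5a, with the levels given above, changed by -1.46 (limma adjusted p = 1.14e-21) and did not overlap either. Cox8a changed by -0.89 (limma adjusted p = 9.77e-15) and Cox7c by -0.27 (limma adjusted p = 0.00606). The rotor ring of ATP synthase is built from 1 protein encoded by 3 genes, Atp5g1, Atp5g2 and Atp5g3. Atp5g3 had a lowest of 226.6, a median of 282.4 and a highest of 388.9 CPM in oligodendrocytes against 579.6, 718.3 and 975.0 in astrocytes, without overlap, and changed by -1.34 (limma adjusted p = 7.34e-25). The F1 genes Atp5b and Atp5a1 changed by -0.60 (limma adjusted p = 7.97e-16) and -0.68 (limma adjusted p = 2.21e-15).

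The 5 genes that rose in oligodendrocytes were Ndufa3, Cox6a1, Cox7a2l, Ndufs6 and Ndufb11. Ndufa3, a small membrane-arm subunit, had a lowest of 296.7, a median of 381.98 and a highest of 782.0 CPM in oligodendrocytes against 187.7, 246.9 and 379.5 in VISp astrocytes; the ranges overlapped and the change was 0.74 (SE 0.091, limma adjusted p = 5.90e-10). Cox6a1, the widely expressed isoform of its subunit, had 586.0, 677.6 and 952.7 CPM against 365.6, 448.7 and 622.6, a change of 0.59 (SE 0.064, limma adjusted p = 1.77e-11). Ndufs6, which holds a zinc site of complex I, rose by 0.34 (limma adjusted p = 0.00193), Cox7a2l by 0.39 (limma adjusted p = 0.00352) and Ndufb11, a membrane-arm subunit, by 0.26 (limma adjusted p = 0.0111); the Ndufb11 call was lost on AB plates alone. Cytosolic ribosomal protein genes took 0.742% of reads in oligodendrocytes and 0.473% in VISp astrocytes. Of these, 69 of 84 rose (82.1%) and 2 fell (2.38%), against 20.1% and 34.6% of all genes tested.

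In MB/HB astrocytes the rise was found mostly in complexes I and IV. Complex I had 22 of 39 genes higher (56.4%) and complex IV 10 of 17 (58.8%). Complex III had 3 of 8 (37.5%), ATP synthase 4 of 17 (23.5%) and complex II 1 of 4 (25%), with 0 lower in each complex. Of all genes tested 9.8% were called higher and 7.14% lower. Ndufa4 had 647.4, 989.1, 696.3 and 801.1 CPM in the 4 mice, all above the highest of the VISp astrocyte mice (589.2), and rose by 0.82 (SE 0.15, limma adjusted p = 6.36e-05). In the CBX mice it had 429.4 and 468.1 CPM, inside the VISp range. Ndufa1 rose by 0.85 (limma adjusted p = 0.00149) and Ndufb8 by 0.65 (limma adjusted p = 1.35e-04), whereas Ndufs1 (-0.09, limma adjusted p = 0.79) and Ndufv1 (0.41, limma adjusted p = 0.0686) were not called. Cox4i1, the common isoform of a regulatory subunit, had 838.3, 1144, 877.9 and 1132 CPM against 553.8, 697.3 and 818.0 in VISp and rose by 0.54 (limma adjusted p = 1.05e-04). Cox6c rose by 0.61 (limma adjusted p = 0.00412), Cox6a1 by 0.57 (limma adjusted p = 1.39e-04) and Cox7a2 by 0.62 (limma adjusted p = 0.00521).

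Several core genes of the other complexes were not called in MB/HB. The catalytic Atp5b changed by 0.049 (limma adjusted p = 0.77), Sdha by -0.10 (limma adjusted p = 0.715) and Uqcrc2 by 0.042 (limma adjusted p = 0.898). Atp5g1, a ring gene, had 190.9, 378.1, 240.2 and 270.7 CPM against 82, 138.4 and 200.2 in VISp, with overlap in 1 mouse, and rose by 0.94 (limma adjusted p = 2.61e-06), while its paralogues Atp5g2 (0.075, limma adjusted p = 0.887) and Atp5g3 (0.23, limma adjusted p = 0.16) were not called. The 1 gene that fell was Ndufaf7, a complex I methyltransferase, with 43.3, 22.4, 60.9 and 45 CPM against 31.6, 73.2 and 121.5 (-0.80, limma adjusted p = 0.0324); its call was lost under 6 of 18 alternatives, among them those without MouseID-615516, MouseID-651222 or MouseID-651229.

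The MB/HB count rested in part on 1 mouse. Without MouseID-651222, the mouse with the highest share of reads, 19 genes were called against VISp, all of them among the 41. Its astrocyte-like cells had a median of 2733.5 genes detected, against 4471, 3863 and 4601.5 in the other MB/HB mice. The part of this in the count was not tested. The same mouse gave 12 of the 15 MB/HB cells classed as neuron-like, which were kept apart from its astrocytes. Summed endothelial markers in the MB/HB astrocyte-like cells were 938.1, 500.9, 7.25 and 70.7 CPM in the 4 mice, and summed oligodendrocyte markers were 1019, 1472, 792.8 and 6162 CPM. Cells carrying markers of another class were 12% of the MB/HB cells; without them 43 genes rose and 0 fell.

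In CBX astrocytes 4 genes rose (4.26%) and 2 fell (2.13%) against VISp, where 7.91% and 5.45% of all genes tested were called. Cox7a2l had 83.8 and 92.7 CPM in MouseID-614198 and MouseID-651221 against 23.8, 39 and 69.5 in VISp and rose by 1.10 (limma adjusted p = 0.00325); the call was lost without MouseID-651221. Cox4i1 had 886.0 and 923.4 CPM and rose by 0.41 (limma adjusted p = 0.0415), a call lost under 5 of 16 alternatives. Uqcrc1 had 895.5 and 867.2 CPM and rose by 0.52 (limma adjusted p = 0.0486), a call lost under 10 of 16 alternatives. Cycs was low in CBX, with 78.6 and 100.9 CPM against 87.2, 130.1 and 177.02 in VISp and 137.7, 249.95, 154.4 and 174.6 in MB/HB; 1 of the 2 CBX mice lay below every other astrocyte mouse. It fell against both, with log2 changes of -0.60 (limma adjusted p = 0.0256) and -0.96 (limma adjusted p = 0.00137). Ndufaf4 fell as well, its change being -1.43 (limma adjusted p = 0.00158) against VISp and -1.46 (limma adjusted p = 0.00741) against MB/HB. With 1 CBX mouse left out, 1 gene was called against VISp whichever mouse it was, and 1 and 4 against MB/HB, so calls in CBX depend on both mice. Against MB/HB, 4 of 17 complex IV genes were lower in CBX (23.5%, against 6.12% of all genes tested). Among them were Cox6c (-0.84, limma adjusted p = 0.0168) and Cox6a1 (-0.53, limma adjusted p = 0.0368). Ndufa4 was lower as well, at -0.78 (limma adjusted p = 0.0233). Summed oligodendrocyte markers were 2196 and 1923 CPM in the CBX mice; their part in these values was not tested.

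Several subunits of complex IV exist in tissue isoforms, and among the isoform genes lay the largest rise in neurons and the largest in MB/HB. Cox6a2, the isoform known from heart and striated muscle, had 56 and 88.7 CPM in the neurons of MouseID-638254 and MouseID-651227. In VISp astrocytes it had 0, 0 and 6.39 CPM (lowest, median and highest) and in oligodendrocytes 0, 0 and 11.7. No CBX or MB/HB cell held a read, which allows a share of up to 3.70% of 81 and 2% of 150 cells. Neurons did not overlap any glial group, and Cox6a2 rose by 5.81 (SE 0.60, limma adjusted p = 9.65e-12) against astrocytes and 5.64 (limma adjusted p = 1.55e-11) against oligodendrocytes. A read of Cox6a2 was found in 41.7% of 60 neuron-like cells, against 0.812% of VISp astrocyte-like and 1.39% of oligodendrocyte-like cells; the mice of these groups had a median of 407495, 430987 and 428868 reads per cell. Per length of exon it made up 6.63% of the Cox6a pair in neurons, the remainder being Cox6a1.

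Cox7a1, a second isoform known from heart and muscle, was highest in MB/HB astrocytes. It had 41.4, 62.3, 77.1 and 57.2 CPM in the 4 mice and 12.6 and 13.7 in the CBX mice. VISp astrocytes ran from 0 through 6.98 to 27.6 CPM and oligodendrocytes from 0 through 0.813 to 6.19, while the neurons had 0.235 and 2.26. All MB/HB mice lay above all VISp mice, with a log2 fold change of 2.88 (SE 0.49, limma adjusted p = 1.26e-05), and the change without MouseID-651222 was 2.84. It fell in oligodendrocytes (-2.16, limma adjusted p = 2.23e-09) and in neurons (-2.0, limma adjusted p = 0.0127), the latter call being lost under 4 of 16 alternatives, among them that without MouseID-638254. Per length of exon Cox7a1 was 13.3% of the Cox7a family in MB/HB, 4.05% in CBX and 3.29% in VISp astrocytes. A read was found in 38% of MB/HB cells. Summed markers of mural and fibroblast cells were 80.7, 390.1, 69 and 152.2 CPM in these mice, and without cells carrying markers of another class the change was 2.80. In MB/HB 3 of the 4 mice had reads of Cox8b, a further muscle isoform, with 2.45, 0, 5.19 and 5.62 CPM and a change of 1.56 (limma adjusted p = 3.86e-06). Every oligodendrocyte and neuron mouse was at 0 for Cox8b. The spread behind its p-value is pooled with these mice and does not measure that of the 4 MB/HB mice alone. These levels are near the floor.

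Cox4i2, an isoform of Cox4 known for regulation by oxygen, had 0, 3.54 and 12.4 CPM in VISp astrocytes and 0, 0.0441 and 1.54 in oligodendrocytes. It was lower in oligodendrocytes, at -1.89 (limma adjusted p = 2.73e-08) and in neurons, at -2.02 (limma adjusted p = 0.00924), the neuron mice having 0 and 0.0932 CPM. That neuron call was lost without either mouse. Summed markers of mural and fibroblast cells had medians of 48.5 CPM in VISp astrocytes, 0.264 in oligodendrocytes and 13.9 in neurons. Their part in the Cox4i2 values was not tested. Cox7b2, a paralogue of Cox7b, had 15.8 and 32.4 CPM in CBX, 17.4, 26.7, 9.51 and 7.87 in MB/HB and 0.0880, 5.32 and 36.5 in VISp astrocytes. It fell in oligodendrocytes (-2.21, limma adjusted p = 3.14e-09), whose highest mouse had 2.54 CPM, and rose in CBX (2.20, limma adjusted p = 0.0237) and MB/HB (1.51, limma adjusted p = 0.0318); these regional calls were lost under 4 of 16 and 6 of 18 alternatives, among them those without either CBX mouse and without MB/HB MouseID-615516 or MouseID-651222. Per length it was 14.6% of the Cox7b pair in CBX. Ndufa4l2, a paralogue of Ndufa4 known from hypoxia and from pericytes, had 0, 23.7, 0 and 0.448 CPM in MB/HB: its rise (1.29, limma adjusted p = 0.00346) came from MouseID-651222, and 2 of the 150 MB/HB cells held reads, and without that mouse the gene did not pass the filter. Cox6b2, known from testis, had 0, 11 and 31.7 CPM in VISp astrocytes and 0.551, 3.64 and 16.5 in oligodendrocytes, where it changed by -1.19 (limma adjusted p = 9.06e-04).

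**Figure D4:**
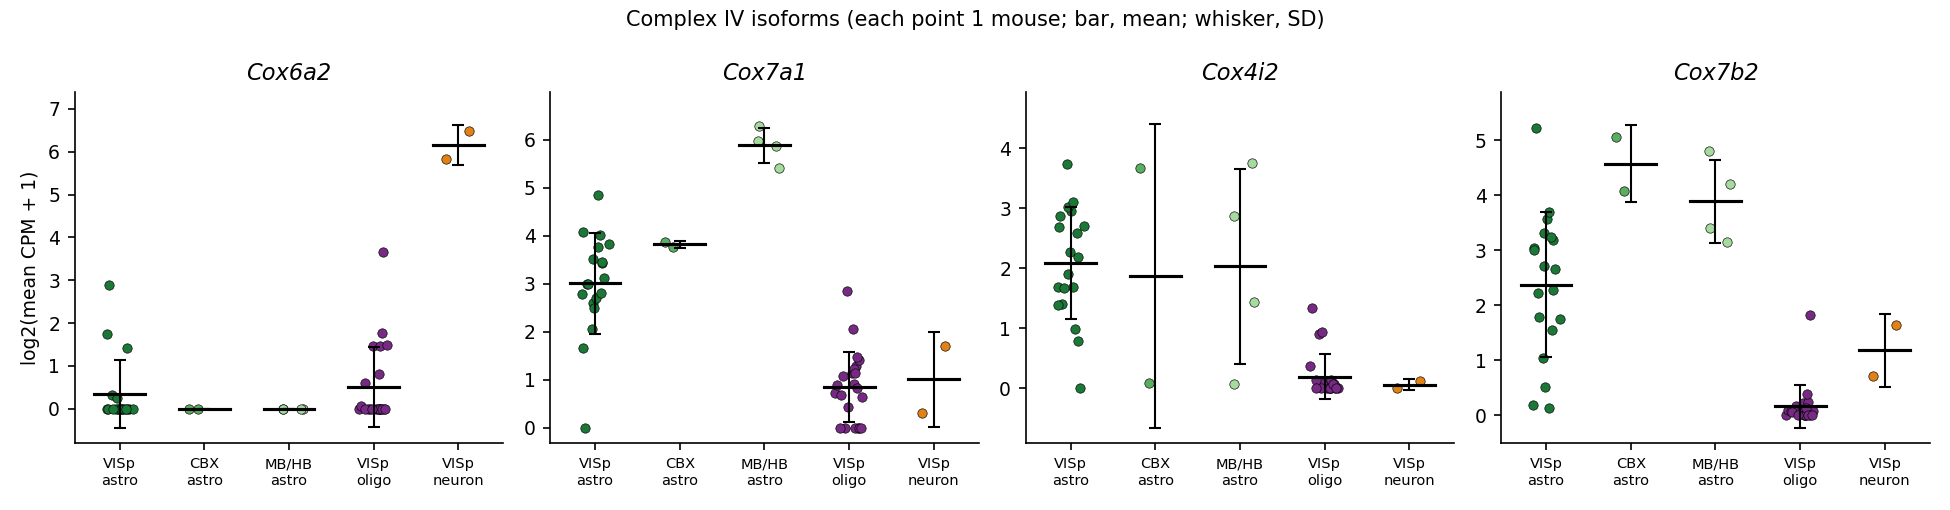
Level of 4 complex IV isoform genes as log2(mean CPM + 1) (vertical axes) by group; each point is 1 mouse, the bar the mean and the whisker the SD. Cox6a2 is high in both neuron mice alone, Cox7a1 is highest in the 4 MB/HB mice, and Cox4i2 and Cox7b2 are near 0 in most oligodendrocyte mice.

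Levels of different genes were compared only per kilobase of exon (GENCODE M21 lengths, found for all 95 genes). In VISp astrocytes Cox8a led with 1315 CPM per kilobase, followed by Atp5g3 with 1010.3, Atp5b with 983.4, Cox4i1 with 894.9 and Cox6a1 with 819.2. In neurons Ndufa4 led with 2303, before Atp5b with 2227 and Atp5g3 with 1848. In oligodendrocytes Cox6a1 led with 1233, before Cox4i1 with 943.1 and Ndufa3 with 751.9. The leading gene was a different subunit in each class; neighbours in these orders were not tested against each other. The median SD of the members between mice on the log2 scale was 0.27 in VISp astrocytes, 0.27 in MB/HB and 0.29 in oligodendrocytes, against 0.36, 0.37 and 0.27 for other genes with a mean of at least 100 CPM.

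Promoters were examined for 3 short motifs, since most members moved in the same direction. RefSeq promoter windows of 300 bases (250 before and 50 after the start, build GRCm38.p6) were found for 78 of the 95 genes. Searched on both strands, the core of the NRF1 site, GCGCATGC, occurred in 13 of 78 (16.7%) and in 3.05% of all 27025 genes with such windows. The ETS core, CCGGAAG, occurred in 19 (24.4%) against 9.93%, and the YY1 core, AAGATGGC, in 11 (14.1%) against 3.19%. These factors are known regulators of nuclear genes for mitochondrial proteins; a match is a description of letters and not a binding site. At least 1 of the 3 was present in 36 windows (46.2%), against 14.9% of all genes.

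Windows of 4 genes are shown because they stand for the different patterns above: Cox6a1 (chr5:115348909-115349208, minus strand), higher in oligodendrocytes; Cycs (chr6:50566520-50566819, minus strand) and Ndufaf4 (chr4:24897833-24898132, plus strand), lower in oligodendrocytes and in CBX; and Cox7a1 (chr7:30183921-30184220, plus strand), highest in MB/HB astrocytes. They are written 5′ to 3′ along the gene's strand, with motif letters in capitals: in Cox6a1 a pair of overlapping NRF1 cores and an ETS core, in Cycs 1 NRF1 core, in Ndufaf4 3 NRF1 cores of which a pair overlap, and in Cox7a1 none of the 3 motifs.
Cox6a1: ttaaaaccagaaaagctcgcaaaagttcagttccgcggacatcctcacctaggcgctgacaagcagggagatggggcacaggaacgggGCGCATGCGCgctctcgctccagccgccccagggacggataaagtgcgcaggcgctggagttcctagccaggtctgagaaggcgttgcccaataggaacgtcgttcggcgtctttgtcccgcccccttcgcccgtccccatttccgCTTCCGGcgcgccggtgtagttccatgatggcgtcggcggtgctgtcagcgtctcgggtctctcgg
Cycs: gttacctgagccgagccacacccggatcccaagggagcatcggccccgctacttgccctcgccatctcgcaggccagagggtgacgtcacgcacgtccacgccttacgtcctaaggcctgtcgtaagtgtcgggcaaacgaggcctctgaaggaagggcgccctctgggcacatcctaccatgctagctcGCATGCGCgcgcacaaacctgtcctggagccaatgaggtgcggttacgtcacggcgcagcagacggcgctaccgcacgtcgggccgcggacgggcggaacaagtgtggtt
Ndufaf4: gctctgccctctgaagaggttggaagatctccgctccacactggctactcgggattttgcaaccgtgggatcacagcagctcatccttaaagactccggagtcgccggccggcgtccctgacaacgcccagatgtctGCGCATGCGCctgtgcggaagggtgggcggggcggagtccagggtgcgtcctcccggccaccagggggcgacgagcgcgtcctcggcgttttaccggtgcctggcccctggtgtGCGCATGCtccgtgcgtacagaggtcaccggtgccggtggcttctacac
Cox7a1: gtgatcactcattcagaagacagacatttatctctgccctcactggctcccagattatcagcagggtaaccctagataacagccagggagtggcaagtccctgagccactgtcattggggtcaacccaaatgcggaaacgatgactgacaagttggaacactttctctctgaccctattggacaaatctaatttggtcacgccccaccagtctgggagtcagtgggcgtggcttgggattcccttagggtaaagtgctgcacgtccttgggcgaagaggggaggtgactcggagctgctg
The windows of Cox6a1, higher in oligodendrocytes, and of Cycs, lower there, each held an NRF1 core. A relation between motifs and the direction of change was not tested.

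By genes called, the subunits encoded in mitochondrial DNA moved against most nuclear genes in neurons and in oligodendrocytes, and with them in MB/HB. The 13 genes took 1.33% ± 0.196 (SD, n = 19) of reads in VISp astrocytes, 2.31% ± 0.803 (SD, n = 4) in MB/HB and 1.39% ± 0.303 (SD, n = 22) in oligodendrocytes. They took 0.693% and 0.660% in the neurons of MouseID-638254 and MouseID-651227. The CBX mice, MouseID-614198 and MouseID-651221, had 1.02% and 0.913%. In neurons 7 of 13 fell against astrocytes and 0 rose, and 10 fell against oligodendrocytes, while 70 and 81 nuclear genes rose. Of all genes tested 13.2% and 11% were called lower in these comparisons. In oligodendrocytes 7 rose and 2 fell against astrocytes (20.1% and 34.6% of all genes tested). In MB/HB 6 rose and 0 fell (9.8% and 7.14% of all genes tested), the same direction as the nuclear genes. There MouseID-651229 had 3.5% of reads in these genes and the other 3 mice 1.75% to 2.06%. In CBX against VISp 0 rose and 1 fell (7.69%, near the 5.45% of all genes), with a median of -0.33 where the nuclear genes had 0.14. Against MB/HB 9 fell in CBX (6.12% of all genes) and 0 rose. mt-Co1, a catalytic core subunit of complex IV, changed by -1.31 (limma adjusted p = 8.00e-08) in neurons against astrocytes, and mt-Cytb, the cytochrome b of complex III, by -0.94 (limma adjusted p = 3.17e-05); these were chosen after their values were seen. The 13 genes were counted unevenly in the table: VISp astrocytes averaged 3265 CPM for mt-Co1 but 12 for mt-Co2 and 18.5 for mt-Co3, so their summed share reflects a few genes.

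Other genes of energy metabolism were lower in oligodendrocytes as well. Of 18 genes of pyruvate dehydrogenase and the citric acid cycle 16 fell and 0 rose against VISp astrocytes (34.6% and 20.1% of all genes tested), with a median of -0.80; lower too were 15 of 17 glycolysis genes (median -1.77) and 7 of 9 carriers of adenine nucleotides and phosphate (median -0.67). Cs, citrate synthase, had 116.6, 161.5 and 201.3 CPM in oligodendrocytes and 357.7, 515.3 and 748.5 in VISp astrocytes (lowest, median and highest), without overlap, a change of -1.72 (limma adjusted p = 4.99e-27). In neurons against astrocytes 8 of 18 citric acid cycle genes rose (44.4%) and 3 fell (16.7%). Of 17 glycolysis genes 7 rose (41.2%) and 2 fell (11.8%). Among all genes tested 23.2% were called higher and 13.2% lower in that comparison. In MB/HB astrocytes, where 40 oxidative phosphorylation genes rose, 0 citric acid cycle genes rose and 2 fell (11.1%). All genes tested gave 9.8% higher and 7.14% lower there.

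Regulators of mitochondrial gene expression gave 5 of 13 lower (38.5%) and 0 higher in oligodendrocytes, near the 34.6% of all genes tested that were lower. In neurons against VISp astrocytes 1 rose (7.69%) and 2 fell (15.4%), against 23.2% and 13.2% of all genes. In MB/HB 2 rose (15.4%) and 0 fell, against 9.8% and 7.14%. Ppargc1a, which encodes the coactivator PGC-1α, had 0, 0.573 and 5.33 CPM in oligodendrocytes and 90.8, 164.2 and 330.8 in VISp astrocytes, a change of -6.48 (limma adjusted p = 3.06e-31), and 96.5 and 116.2 CPM in the neurons (-0.65, limma adjusted p = 0.376). Nrf1, whose protein binds the core searched above, had 51.4, 80.7 and 132.4 CPM in VISp astrocytes, 10.1, 24.4 and 73.6 in oligodendrocytes and 11.9 and 18.6 in neurons, changing by -1.68 (limma adjusted p = 1.91e-10) and -2.36 (limma adjusted p = 4.20e-05). Both neuron values lay below every VISp astrocyte mouse. Other regulators had higher means than in VISp astrocytes: Ppargc1b averaged 10.4 CPM in neurons against 0.840, and Esrrg 171.6 CPM in MB/HB against 30.9. Cs, Ppargc1a, Nrf1, Ppargc1b and Esrrg were chosen after their values were seen.

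**Figure D5:**
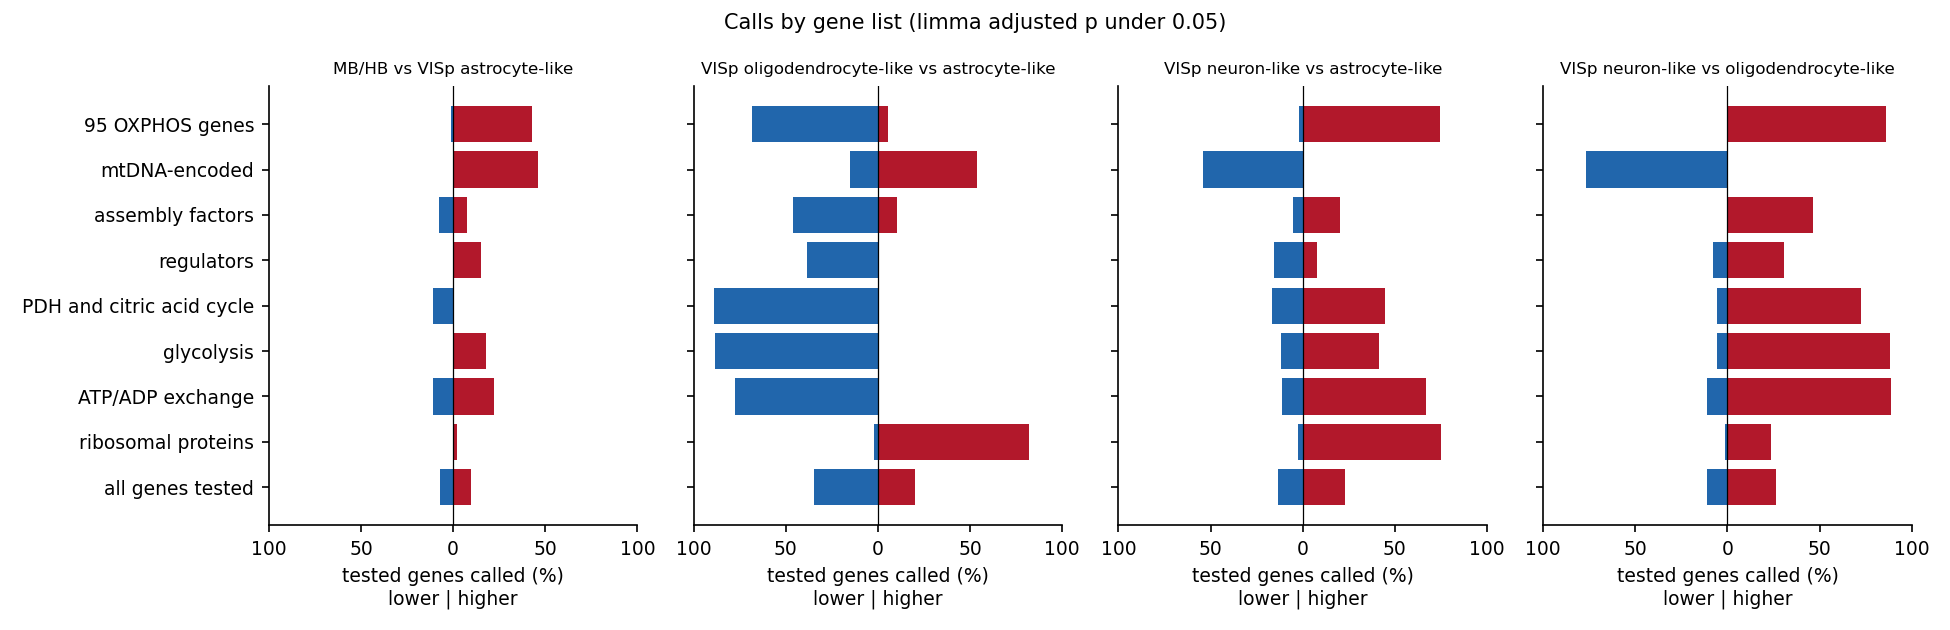
Percent of tested genes called higher (red, to the right) and lower (blue, to the left) in 8 gene lists and among all genes tested, for 4 comparisons; bars start at 0. In both neuron comparisons the bars of the oxidative phosphorylation genes lie mostly to the right and those of mitochondrial DNA to the left, whereas in MB/HB both lie mostly to the right.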

How the data were processed

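Processed values were analysed, not reads. The submitters' processing notes name STAR and mm10; the counting step and annotation are not given in the sources used here. The deposited table gives CPM, counts scaled to a fixed sum, with 1 line per cell: each line sums to 1000000, and 100% of its 9484843 positive values were whole multiples of 1 read within 0.01 reads, which gives each cell's depth. The panel held 5000 gene columns, 369 listed genes and 4631 drawn at random; the other 27245 were not used here. No 2 cells had identical values over the panel.

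Cells were clustered on 2000 variable panel genes without the oxidative phosphorylation and energy metabolism genes, using 30 principal components, 15 neighbours and Leiden resolution 1 (Python 3.11.15 with scikit-learn 1.9.0, igraph 0.11.9 and leidenalg 0.10.2). Of 11 clusters, those named held at least 3 detected markers of 1 of 10 lists; 51 cells stayed unnamed. Doublets were not called, and cells in which markers of another class were detected were left out in an alternative. Mice with at least 10 cells of a class were kept, and mean CPM was tested as log2(mean + 1) with limma 3.58.1 (R 4.3.3; linear model over 5 groups, empirical Bayes with trend, two-sided). The limma script was tested on simulated data. Counts recovered from the deposited CPM were tested only in the added alternative.

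Named genes are 30 fixed ones and, per comparison, the 6 called members with the largest change in each direction; others are said to be chosen after their values were seen. The members and all lists were chosen with earlier results of these data known. Alternatives numbered 21 planned and 1 added after seeing the data (reads summed per mouse, tested with limma voom). Oxidative phosphorylation shares carry no test.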

Additional observations from a re-analysis of the deposited data

Results flagged for a closer look

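In 43 measures over the 4 MB/HB mice, 3 had 1 mouse apart from the other 3 by Dixon's test at the 95% level, all of them MouseID-651222; chance alone gives about 1 in 20. Atp5a1 was at 10.53 on the log2(mean CPM + 1) scale in that mouse and at 10.05 to 10.11 in the others. Uqcrc1 was at 10.08 against 9.116 to 9.167. Ndufa4l2 was at 4.627 against 0 to 0.534. This mouse also had the highest share of reads in the 95 genes among the 4.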

How the results depend on the processing

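The counts for oligodendrocytes against VISp astrocytes (69 called), neurons against VISp astrocytes (72) and neurons against oligodendrocytes (81) stayed within 1.5 times in total under every alternative run, 57 to 59 and 71 to 72 being called with 1 neuron mouse left out, and the shares of reads of oligodendrocytes, MB/HB and CBX within 1 SD. With log2 values averaged over cells the oligodendrocyte total was 65, but the genes called higher went from 5 to 27, and 43 of the 69 were called in the same direction. The neuron share exceeded that of VISp astrocytes by 2.26 percentage points; with clusters at resolution 2 the difference was 1.93 and with classes called per cell 1.927, and that from oligodendrocytes went from 2.95 to 2.613 and 2.609. With log2 values averaged over cells, 43 genes were called in CBX against VISp (6 as reported), 27 in MB/HB against VISp (41) and 24 in CBX against MB/HB (10). Quantile normalization gave 27 in MB/HB. AB plates alone gave 3 and voom 10 in CBX against VISp. Leaving out 1 mouse gave 1 to 1 in CBX against VISp, 19 to 40 in MB/HB against VISp and 1 to 13 in CBX against MB/HB. Among the named genes, averaging log2 values reversed 5 oligodendrocyte changes, in Sdha (0.1565), Uqcrc2 (0.0869), Cox6b1 (0.0004565), Atp5g1 (0.6368) and Atp5g2 (0.391), and Atp5g2 in neurons against astrocytes (1.055); the cause was not tested. A fit with the mouse as a random block, which pairs the 2 mice that gave neurons and oligodendrocytes, left all 6 counts as reported (6, 41, 10, 69, 72 and 81). The median of all genes in oligodendrocytes against astrocytes moved from -0.19 to 0.02 under quantile normalization and to -0.48 under voom, and with averaged log2 values that in neurons moved from 0.035 to 0.60 against astrocytes and from 0.25 to 0.65 against oligodendrocytes, and under voom to 0.37 and 0.73. Groups of 2 mice (CBX, neurons) and genes near 1 CPM limit what could be called; a gene not called is not shown to be equal.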

Other observations

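Cells outside the 5 groups gave single values. The 15 neuron-like cells of MB/HB, from 4 mice, had a mean of 5.83% of reads in the 95 genes, and the 12 of them from MouseID-651222 had 5.81%. The 15 VISp neuron-like cells from 8 mice not counted above, each with too few such cells, had 4.69%. The 6 oligodendrocyte-like cells of MB/HB, from 1 mouse, had 1.91%, and the 51 unnamed cells, from 25 mice, had 2.79%. These cells belong in no comparison, and no test was made on them.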
